A study of Mus musculus with 18 samples.

Results

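Integrins and the cytoplasmic proteins that couple them to actin were followed through the RNA of young, old and rejuvenated old mesenchymal stem cells (MSCs). The genes were chosen by name, with earlier results of these data known. All rows whose symbol is an integrin alpha or beta subunit were taken, which gave 18 alpha and 8 beta subunits, and 21 listed genes of focal adhesion proteins were added, so that 47 of the 27179 genes in the table were members. Of these, 42 averaged 10 normalized counts or more across the 18 libraries and were tested among 14353 genes that passed the same limit. The other 5 were Itga2, Itgad, Itgax, Itgb6 and Fermt1. Another 5 members (Itga4, Itga9, Itgae, Itgam and Itgb7) passed the limit although 1 or more groups averaged under 10. Itgae did so through young libraries only, and Itga4, Itga9 and Itgam through old and rejuvenated old libraries only.

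Integrins are receptors made of 1 alpha and 1 beta chain that hold cells to the extracellular matrix or to other cells. The alpha chain largely sets the ligand (collagens, laminins, or proteins with an RGD motif such as fibronectin and vitronectin), and most alpha chains of matrix-bound cells pair with beta 1. Talins and kindlins bind the beta tail and switch the receptor on. The kinase-like ILK with its PINCH and parvin partners, focal adhesion kinase with paxillin and p130Cas, and linkers such as vinculin, alpha-actinin, zyxin and tensin then join the receptor to actin filaments. In bone marrow MSCs these structures take part in attachment, spreading and the sensing of matrix stiffness.

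Each group held 6 libraries of primary MSCs from the bone marrow of C57BL6 mice. Young MSCs came from mice of 6 weeks, old MSCs from mice of 18 to 24 months, and both were grown without the other. Rejuvenated old MSCs were old MSCs kept for 7 days across a 0.4 µm Transwell membrane from young MSCs, so that the cells shared medium but not contact. A co-culture of old with old MSCs was not analysed here. The presence of a second culture and the youth of that culture cannot be told apart. The labels do not say whether the replicates came from separate animals, and p-values measure only the spread between these libraries, which may be technical.

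The libraries held 22936251 to 29559194 reads. Within each group every pair of libraries differed by more than sampling noise, with a chi-square of at least 2.71 per gene, so all 18 were counted. All 13 MSC markers passed the limit, but Thy1 did so through young libraries, with 175 to 227 normalized counts against 0 to 3.23 in old and 0 to 21.6 in rejuvenated old libraries. All 13 also differed between young and old MSCs at the threshold given below. In young MSCs 5 were higher (38.5%, against 41.6% of all genes) and 8 lower (61.5%, against 44.1%). The median size of their difference was 2.79 log2 units, against 0.60 over all genes. The methods describe male animals, but 4 genes of the Y chromosome (Ddx3y, Eif2s3y, Kdm5d and Uty) reached at most 2 reads in any young library. They held at least 570 normalized counts in each old and 493 in each rejuvenated old library. Xist, the RNA of the inactive X chromosome, was low in all groups. It was at 21.2 to 41.2 in young, 1.97 to 14.4 in old and 4.83 to 10.3 in rejuvenated old libraries. The 20 macrophage markers summed to 1044 to 1156 normalized counts in young, 19525 to 24064 in old and 19478 to 23344 in rejuvenated old libraries. Of these markers, Ptprc and Adgre1 were at 0 in all young libraries, while 11 had over 3 reads in a young library. Cd68, for example, was at 395 to 480 normalized counts in young libraries. Between young and old MSCs the genes of chromosomes 1, 7, 12 and 16 were shifted as blocks, by -0.66, 0.64, -0.43 and -0.72 log2 units from the autosomal median, and 11 tested members lie on these chromosomes. These 4 were picked after the data were seen, as those shifted by over 0.3 log2 units. The part of these differences in the results was not tested. On the principal components of all expressed genes, rejuvenated old replicate 1 had a first score of 64.1 against at least 79.6 in the other 5, and replicate 5 a second score of -39.9 against -29.7 to -21.6.

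Throughout, a level is a normalized count, and a difference is that of the group means of log2(normalized count + 1) with its standard error, from limma with a Benjamini-Hochberg adjusted p over all 14353 genes and 6 libraries per group. A gene was called at an adjusted p under 0.05. The comparisons share libraries (old libraries stand in both comparisons with old MSCs), so they are given side by side and not as support for each other.

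Old MSCs differed from rejuvenated old MSCs by small steps in many members, and nearly all members were called between young and old MSCs. In rejuvenated old against old MSCs, 12 of the 42 tested members were higher (28.6%, against 21% of all genes tested) and 14 were lower (33.3%, against 20.6%). The median size of the difference was 0.18 log2 units, against 0.15 over all genes. Adding a limit of 0.5 log2 units left 1 higher member, Lims2, and 3 lower members, Itga6, Itga8 and Itgb8. The share of all genes that passed this limit was not worked out, so these counts cannot be called many or few. In young against old MSCs, 18 members were higher (42.9%, against 41.6% of all genes) and 22 were lower (52.4%, against 44.1%), with a median size of 0.97 against 0.60 over all genes. In young against rejuvenated old MSCs, 17 members were higher (40.5%, against 41.5%) and 20 were lower (47.6%, against 44.1%), with a median size of 0.90 against 0.58.

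**Figure D1:**
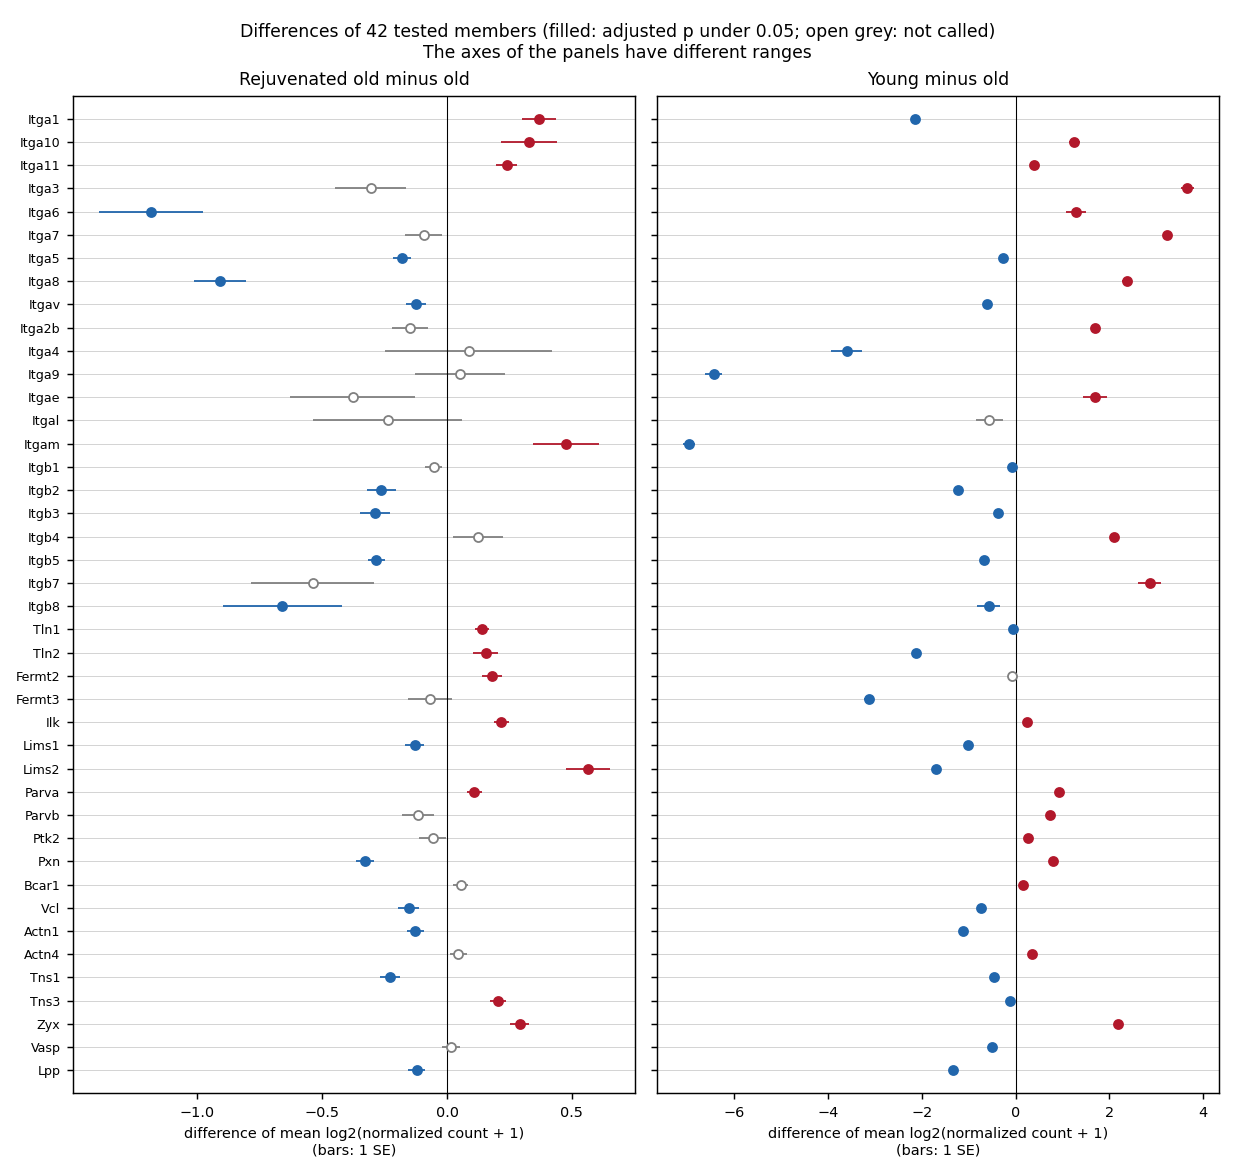
Differences of the 42 tested members for rejuvenated old minus old MSCs and young minus old MSCs, in log2 units on the horizontal axis with 1 standard error, with red for higher, blue for lower and open grey for not called. In the first panel the differences run from -1.19 (Itga6) to 0.56 (Lims2), and in the second from -6.96 (Itgam) to 3.66 (Itga3).

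The promoters of 3 members that differed widely between young and old MSCs are shown, those of Itga3 and Zyx, which were several times higher in young MSCs, and that of Itgam, which young MSCs hardly expressed. Each is the RefSeq window of 250 bases before to 50 bases after the start site (GRCm38.p6, the patch of mm10), on the gene's own strand. The start sites lie 130 bases (Itga3), 317 bases (Zyx) and 0 bases (Itgam) inside the outer end of the gene. Itga3 has a second entry in the table, which is not shown. Capitals mark matches, on either strand, to the Sp1 GC box (GGGCGG), the core of PU.1 sites (GAGGAA), an AP-1 site (TGANTCA), a TEAD site (GGAATG) or the CArG box of serum response factor.
Itga3, chr11:95076665-95076964, minus strand: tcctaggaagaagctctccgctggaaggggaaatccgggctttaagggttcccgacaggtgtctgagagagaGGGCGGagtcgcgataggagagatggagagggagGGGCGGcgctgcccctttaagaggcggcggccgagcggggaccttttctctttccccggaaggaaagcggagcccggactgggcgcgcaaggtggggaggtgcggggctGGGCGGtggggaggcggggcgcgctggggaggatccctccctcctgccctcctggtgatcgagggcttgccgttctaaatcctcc
Zyx, chr6:42349578-42349877, plus strand: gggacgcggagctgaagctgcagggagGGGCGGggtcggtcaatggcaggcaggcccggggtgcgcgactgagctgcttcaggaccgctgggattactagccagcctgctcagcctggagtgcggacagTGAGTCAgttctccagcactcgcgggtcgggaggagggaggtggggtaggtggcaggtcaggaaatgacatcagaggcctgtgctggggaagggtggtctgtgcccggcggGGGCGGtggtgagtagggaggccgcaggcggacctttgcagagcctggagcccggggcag
Itgam, chr7:128062390-128062689, plus strand: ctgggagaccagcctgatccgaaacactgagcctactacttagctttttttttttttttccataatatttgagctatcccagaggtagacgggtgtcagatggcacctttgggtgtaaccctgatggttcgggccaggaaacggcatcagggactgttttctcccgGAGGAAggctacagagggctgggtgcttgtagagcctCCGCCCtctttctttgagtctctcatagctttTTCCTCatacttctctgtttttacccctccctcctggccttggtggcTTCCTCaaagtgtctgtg
The Itga3 window held 3 GC boxes and none of the other motifs, the Zyx window 2 GC boxes and 1 AP-1 site and the Itgam window 3 PU.1 cores and 1 GC box. None of these matches overlapped another. Of the 32851 promoters in the table, 35.7% held a GC box, 28.3% a PU.1 core, 7.81% an AP-1 site, 14.7% a TEAD site and 1.63% a CArG box. Entries were found for 34 of the 47 members.

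Among the collagen receptors, Itga1 (the alpha 1 chain, for network-forming collagens) was lower in young and higher in rejuvenated old than in old MSCs. Its level was 226 to 279 (median 244) in young, 1051 to 1163 (median 1097) in old and 1190 to 1642 (median 1438) in rejuvenated old libraries. The 3 groups did not overlap. The difference was -2.14 ± 0.068 (adjusted p = 1.9e-18) for young against old and 0.37 ± 0.068 (adjusted p = 1.5e-04) for rejuvenated old against old MSCs. Itga10 (a collagen receptor of cartilage) was higher in young MSCs, at 288 to 375 (median 316), against 119 to 153 (median 134) in old and 141 to 222 (median 153) in rejuvenated old libraries. Young libraries lay apart, and rejuvenated old libraries overlapped the old ones, with replicates 1, 5 and 6 above. The difference of 0.33 ± 0.11 (adjusted p = 0.023) between rejuvenated old and old MSCs was no longer called without rejuvenated old replicate 5 (adjusted p = 0.069), rejuvenated old replicate 6 (0.065) or old replicate 4 (0.054). Itga11, the fibroblast receptor for fibrillar collagen and the most abundant of these by level per kb, was higher in young (0.39, or 0.21 with chromosome medians subtracted) and in rejuvenated old MSCs (0.24, adjusted p = 6.2e-05). Itga2 averaged under 10 and was not tested.

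**Figure D2:**
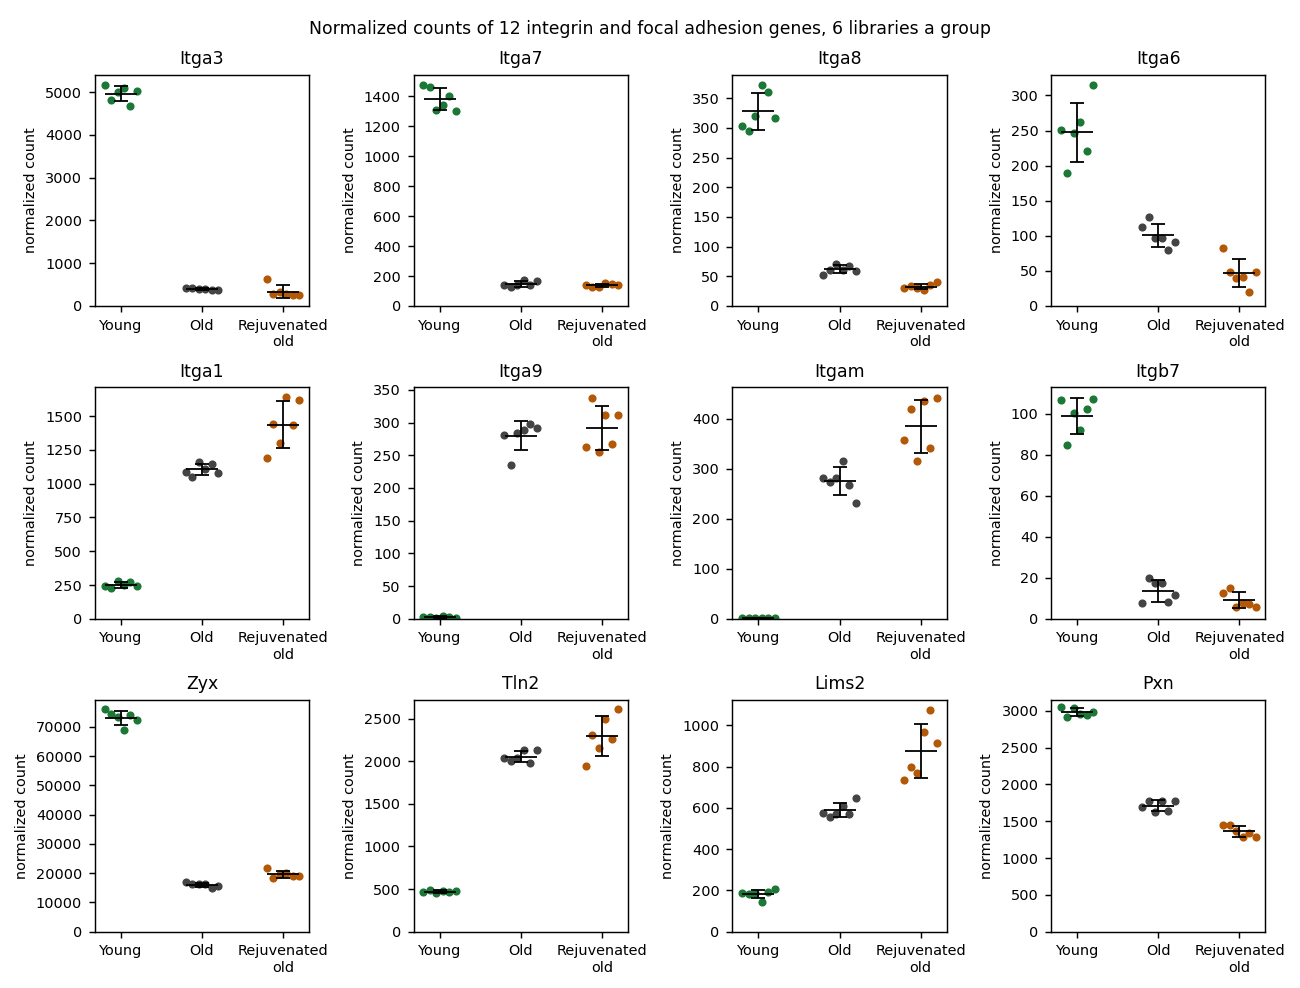
Normalized counts of 12 members by group, each dot 1 library, with the group mean (line) and 1 SD (bars), on linear axes that start at 0. Itga3, Itga7, Itga8, Itgb7, Zyx and Pxn are high in the 6 young libraries, Itga1, Itga9, Itgam, Tln2 and Lims2 are low in them, and the rejuvenated old library that lies above all old libraries in Itga3 is replicate 1.

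All 3 laminin receptors were higher in young than in old MSCs. Itga3 (the alpha 3 chain, which binds laminins with an alpha 5 or alpha 3 chain) stood at 4681 to 5163 (median 5018) in young libraries, at 362 to 411 (median 403) in old and at 256 to 626 (median 278) in rejuvenated old libraries. Young libraries thus lay about 12.6-fold above old ones, and replicate 1 of the rejuvenated old group, the highest, lay above all old libraries while the other 5 lay below them. The difference of young from old MSCs was 3.66 ± 0.14 (adjusted p = 7.3e-17), and that of rejuvenated old from old MSCs was -0.31 ± 0.14 (adjusted p = 0.089). Without rejuvenated old replicate 1 the latter became -0.50 with an adjusted p of 1.1e-07.

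Itga7, the muscle laminin receptor, was at 1305 to 1479 (median 1376) in young libraries against 128 to 175 (median 139.7) in old and 124 to 151 (median 138) in rejuvenated old libraries. Old and rejuvenated old libraries overlapped, with a difference of -0.09 ± 0.074 (adjusted p = 0.33), and young MSCs were 9.38-fold higher than old MSCs. Itga6 (the alpha 6 chain, known from epithelial and stem cells) fell from 80.3 to 127 (median 96.6) in old to 20.5 to 82.4 (median 44.3) in rejuvenated old libraries and was 189 to 315 (median 249) in young ones. Of the rejuvenated old libraries, replicate 1 alone reached into the old range. This difference of -1.19 ± 0.21 (adjusted p = 8.8e-05) was the largest fall of any member in co-culture, while young MSCs differed from old MSCs by 1.29 ± 0.21 (adjusted p = 5.4e-06).

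Of the RGD receptors, Itga8 was lower in rejuvenated old MSCs and higher in young MSCs than in old MSCs. Its level was 52.7 to 71.1 (median 61.0) in old, 27.0 to 40.6 (median 32.4) in rejuvenated old and 295 to 373 (median 318) in young libraries, and none of the groups overlapped. The fall in co-culture was -0.91 ± 0.11 (adjusted p = 4.0e-07), and young MSCs differed from old MSCs by 2.38 ± 0.11 (adjusted p = 9.0e-16). The fibronectin receptor chain Itga5 had the highest level per kb of all alpha chains. Old libraries held 6607 to 6991 (median 6774), rejuvenated old libraries 5668 to 6431 (median 5872) and young libraries 5267 to 6020 (median 5603). All old libraries lay above the others, with differences of -0.18 ± 0.036 (adjusted p = 3.5e-04) for rejuvenated old and -0.27 ± 0.036 (adjusted p = 2.8e-07) for young against old MSCs, the latter -0.47 with chromosome medians subtracted. Itgav, the shared chain of the vitronectin receptors, was lower in young (-0.62) and in rejuvenated old MSCs (-0.12), the latter with an adjusted p of 0.018 that rose to 0.051 without rejuvenated old replicate 5.

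Itga2b, the platelet fibrinogen receptor chain, was higher in young MSCs. Young libraries held 808 to 1038 (median 912), old libraries 253 to 339 (median 281) and rejuvenated old libraries 235 to 286 (median 254). Of 8 other megakaryocyte and platelet markers, the sum was 102 to 148 in young, 492 to 592 in old and 712 to 899 in rejuvenated old libraries, and Pf4, Gp9 and Gp6 were at 0 in young libraries. Young MSCs therefore had the higher Itga2b and the lower sum of these markers. Between rejuvenated old and old MSCs the difference of Itga2b was -0.15 ± 0.071 (adjusted p = 0.099).

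Itga9 and Itga4, which share ligands such as VCAM-1 and a fibronectin segment, were close to undetected in young MSCs. Itga9 was at 1.03 to 4.05 (median 2.58) in young libraries, where it had 1 to 4 reads each, and at 235 to 298 (median 286) in old and 255 to 337 (median 289.6) in rejuvenated old libraries. Summed over libraries, old MSCs had 114 times the level of young MSCs, with an exact 95% interval of 67.9 to 210 that covers counting error only. Itga4 was at 0 to 5.44 (median 2.13) in young, 29.1 to 44.2 (median 35.8) in old and 25.7 to 53.8 (median 40.6) in rejuvenated old libraries, which is 13.9 times higher in old than in young MSCs (8.23 to 25.2). Rejuvenated old and old libraries overlapped in both genes, with differences of 0.05 ± 0.18 (adjusted p = 0.85) and 0.09 ± 0.33 (adjusted p = 0.86).

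The leukocyte chains Itgam and Itgb2 and the blood cell kindlin Fermt3 were lower in young libraries than in the other 12. Itgam (CD11b, of macrophages and granulocytes) was at 1 to 2.23 (median 1.05) in young libraries, with 1 or 2 reads each, at 231 to 315 (median 277) in old and at 316 to 441 (median 388) in rejuvenated old libraries. Summed over libraries, old MSCs had 225 times the level of young MSCs (109 to 560). Every rejuvenated old library was above every old library, with a difference of 0.48 ± 0.13 (adjusted p = 0.0055). Among the 19 macrophage markers tested, none rose (against 21% of all genes) and 1 fell (5.26%, against 20.6%) from old to rejuvenated old MSCs. Their median difference was 0.04, against 0.01 over all genes. In young against old MSCs, all 19 were lower (100%, against 44.1%). Many of them, such as Ptprc and C1qa, averaged under 10 in young MSCs and passed the limit through the other groups. Fewer cells of a type and less RNA per cell cannot be told apart in these libraries.

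Itgb2, the beta chain that Itgam and Itgal pair with, was at 273 to 300.4 (median 285) in young, 618 to 744 (median 670.0) in old and 513 to 625 (median 557) in rejuvenated old libraries. Young libraries were lowest but well above 0. The differences were -1.22 ± 0.058 (adjusted p = 3.5e-15) for young and -0.26 ± 0.058 (adjusted p = 8.6e-04) for rejuvenated old against old MSCs. Fermt3, the kindlin of blood cells, was at 24.6 to 36.2 (median 28.1) in young, 256 to 281 (median 266) in old and 236 to 274 (median 252) in rejuvenated old libraries, and rejuvenated old MSCs differed from old MSCs by -0.07 ± 0.087 (adjusted p = 0.57). Itgae (an integrin of tissue lymphocytes) went the other way, with 21.9 to 35.9 (median 27.3) in young, 5.02 to 11.8 (median 7.79) in old and 3.77 to 9.31 (median 5.98) in rejuvenated old libraries. Its difference was 1.70 ± 0.25 (adjusted p = 1.4e-06) for young and -0.38 ± 0.25 (adjusted p = 0.24) for rejuvenated old against old MSCs. Itgae passed the limit for testing through young libraries only, with a mean of 28.5 against 8.26 in old and 6.23 in rejuvenated old MSCs. Its call between young and old MSCs is thus tied to that limit. Itgal, a lymphocyte and macrophage chain on chromosome 7, was not called in any comparison, with -0.56 ± 0.30 (adjusted p = 0.085) for young against old MSCs, and became called there with chromosome medians subtracted (-1.16, adjusted p = 0.0012) or without young replicate 2 (-0.68, adjusted p = 0.044). None of the 10 lymphocyte markers passed the limit for testing.

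**Figure D3:**
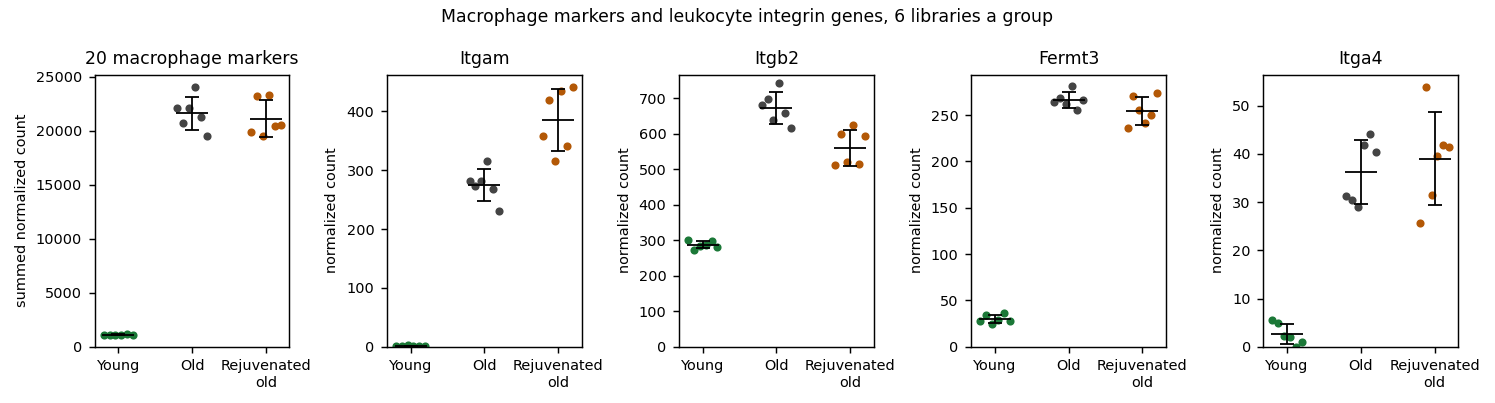
Summed normalized counts of 20 macrophage markers and normalized counts of Itgam, Itgb2, Fermt3 and Itga4, each dot 1 library, with mean and 1 SD, on linear axes from 0. Young libraries are lowest in every panel, rejuvenated old libraries are above old libraries in Itgam (316 to 441 against 231 to 315), and the marker sums of these 2 groups overlap.

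Of the 7 tested beta chains, 4 fell (57.1%, against 20.6% of all genes) and none rose (against 21%) from old to rejuvenated old MSCs. Itgb1, the common partner of the matrix-binding alpha chains, had by far the highest level per kb of the integrins and varied little. It was at 26908 to 28937 (median 27866) in young, 27958 to 31084 (median 29543) in old and 26569 to 29862 (median 28316) in rejuvenated old libraries, and all groups overlapped. Young MSCs differed from old MSCs by -0.08 ± 0.034 (adjusted p = 0.029), a call that was lost when all libraries were scaled to the same total (-0.08 became -0.01) and that turned to 0.065 under quantile normalization. With chromosome medians subtracted it was -0.21 (adjusted p = 1.2e-05). The call was also lost without young replicate 1 (adjusted p = 0.064) or 2 (0.058) or old replicate 2 (0.060) or 3 (0.082). The difference of rejuvenated old from old MSCs was -0.05 ± 0.034 (adjusted p = 0.22).

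Itgb3 and Itgb5, the vitronectin receptor chains that pair with Itgav, both fell from old to rejuvenated old MSCs, by -0.29 ± 0.06 (adjusted p = 4.9e-04) and -0.28 ± 0.034 (adjusted p = 6.5e-07), and no library of these groups overlapped in either gene. Itgb3 was also lower in young MSCs (-0.37), as was Itgb5 (-0.68), which lies on chromosome 16. With chromosome medians subtracted, Itgb5 stood at 0.07 in young against old MSCs (adjusted p = 0.061) and at -0.29 in rejuvenated old against old MSCs. Itgb8, an activator of latent TGF-beta, was at 14.9 to 21.3 (median 16.0) in young, 18.1 to 39.4 (median 23.2) in old and 9.31 to 28.8 (median 17.5) in rejuvenated old libraries. The groups overlapped at these low counts. Its differences of -0.66 ± 0.24 (adjusted p = 0.031) for rejuvenated old and -0.58 ± 0.24 (adjusted p = 0.029) for young against old MSCs lost their calls when single libraries were left out. For rejuvenated old MSCs these were old replicates 2 and 6 (adjusted p = 0.068 and 0.084) and rejuvenated old replicates 4 and 5 (0.083 and 0.086). For young MSCs they were young replicates 2 and 5 (both 0.052) and old replicates 2 and 6 (0.064 and 0.087). Itgb8 lies on chromosome 12, and the difference of young from old MSCs was -0.10 (adjusted p = 0.69) with chromosome medians subtracted and -0.21 (adjusted p = 0.45) under quantile normalization.

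Itgb4 (the hemidesmosome chain, partner of Itga6) and Itgb7 (a lymphocyte chain, partner of Itga4 and Itgae) were higher in young MSCs. Itgb4 was at 254 to 315 (median 281) in young, 55.9 to 73.3 (median 66.3) in old and 61.5 to 87.9 (median 70.5) in rejuvenated old libraries, a difference of 2.10 ± 0.10 (adjusted p = 3.9e-15) for young against old MSCs. Itgb7 was at 84.7 to 107 (median 101) in young, 7.53 to 19.7 (median 14.4) in old and 5.66 to 15.1 (median 7.59) in rejuvenated old libraries. Young libraries were apart from the rest in both genes, and the other groups overlapped. Rejuvenated old MSCs differed from old MSCs by 0.12 ± 0.10 (adjusted p = 0.35) in Itgb4 and by -0.54 ± 0.25 (adjusted p = 0.085) in Itgb7. The latter was called without old replicate 1 (-0.68, adjusted p = 0.032), old replicate 5 (-0.66, 0.040) or rejuvenated old replicate 1 (-0.64, 0.046) or 2 (-0.69, 0.025). None of the 8 epithelial markers passed the limit for testing, which is a mean over all 18 libraries. Their sum was low but higher in young libraries, at 13.2 to 22.3 normalized counts. It was 3.01 to 5.77 in old and 3.73 to 5.71 in rejuvenated old libraries.

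The make-up of the integrin transcripts was compared per kb of exon, which allows levels of different genes to be set side by side. Itga5 made up 33.0% ± 0.77 (SD, n = 6) of the summed alpha chains in young MSCs, 51.4% ± 0.65 in old MSCs and 47.0% ± 1.82 in rejuvenated old MSCs. Itga3 made up 25.2% ± 1.00 in young MSCs and 2.58% ± 0.18 in old MSCs, with 2.26% ± 0.90 in rejuvenated old MSCs. Itga3 was thus the next most abundant alpha chain after Itga5 in young MSCs, and Itga11 held that place in the other groups, followed by Itgav. Itga11 took 18.7% ± 0.35 in young MSCs, 18.5% ± 0.83 in old MSCs and 22.6% ± 1.21 in rejuvenated old MSCs, and Itgav took 8.62% ± 0.46, 17.1% ± 0.83 and 16.2% ± 0.70 in the same order. Of the beta chains, Itgb1 made up 80.2% ± 0.77 in young MSCs, 73.3% ± 1.06 in old MSCs and 76.3% ± 0.70 in rejuvenated old MSCs, and Itgb5 17.0% ± 0.73, 23.5% ± 0.93 and 20.9% ± 0.79.

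**Figure D4:**
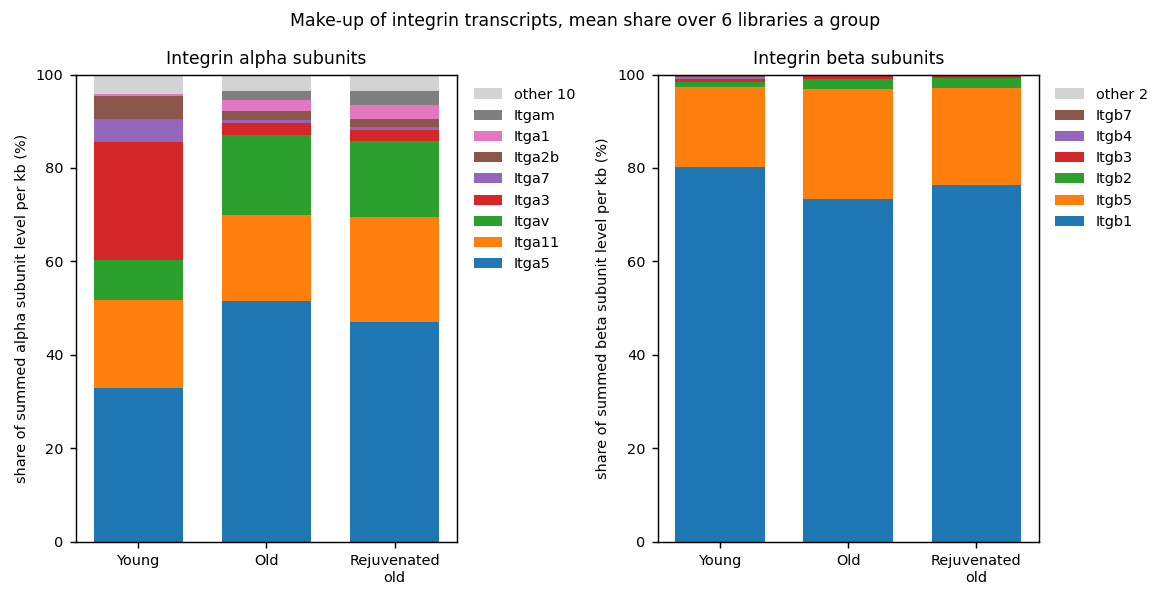
Share of each integrin chain in the summed level per kb of the 18 alpha chains and of the 8 beta chains, as the mean of 6 libraries per group. The segment of Itga3 is 25.2% of the alpha chains in young and 2.58% in old MSCs, and Itgb1 is 73.3% or more of the beta chains in every group.

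Of the activators, both talins and Fermt2 were higher in rejuvenated old than in old MSCs. Tln1, the widely expressed talin, was at 16121 to 16993 (median 16668) in young, 16867 to 18187 (median 17309) in old and 18484 to 20216 (median 18961) in rejuvenated old libraries. All rejuvenated old libraries lay above the other 12, with a difference from old MSCs of 0.14 ± 0.029 (adjusted p = 4.8e-04). The difference of young from old MSCs was -0.07 ± 0.029 (adjusted p = 0.038), and its sign turned to 0.050 with chromosome medians subtracted and to 0.0085 at the same total. That call was also lost without any 1 of young replicates 2, 3 and 6 and old replicates 3, 4 and 5 (adjusted p of 0.0535 to 0.101). Tln2, the talin of muscle and brain, was at 453 to 490.1 (median 471) in young, 1982 to 2132 (median 2040) in old and 1945 to 2608 (median 2285) in rejuvenated old libraries. Young libraries were lower by 4.36-fold. The rise of 0.15 ± 0.051 (adjusted p = 0.019) in rejuvenated old MSCs was lost without rejuvenated old replicate 4 (adjusted p = 0.055) or 6 (0.054). Fermt2, the kindlin of matrix-bound cells, differed by 0.18 ± 0.041 (adjusted p = 0.0012) between rejuvenated old and old MSCs and by -0.08 ± 0.041 (adjusted p = 0.079) between young and old MSCs, the latter called without young replicate 5 (-0.10, adjusted p = 0.040) and with chromosome medians subtracted (-0.27). Fermt1, the epithelial kindlin, had no read in any of the 18 libraries.

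In the complex of ILK, PINCH and parvin, the 2 PINCH genes went in opposite directions in co-culture. Lims2 (PINCH2) was at 555 to 647 (median 573) in old, 737 to 1075 (median 854) in rejuvenated old and 143 to 207 (median 186) in young libraries. No groups overlapped, and with 0.56 ± 0.088 (adjusted p = 2.2e-05) this was the largest rise of any member in co-culture, while young MSCs were at -1.69 ± 0.088 (adjusted p = 2.0e-14) to old MSCs. Lims1 (PINCH1) was at 5493 to 6115 (median 5738) in old, 4791 to 5459 (median 5359) in rejuvenated old and 2702 to 3074 (median 2811) in young libraries. It was lower in rejuvenated old MSCs by a small step, -0.13 ± 0.038 (adjusted p = 0.0083), and about 2.01-fold lower in young MSCs.

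Ilk, the scaffold of this complex, was at 6573 to 6832 (median 6676) in young, 5500 to 5932 (median 5685) in old and 6191 to 6957 (median 6565) in rejuvenated old libraries. All old libraries lay below the others, with differences of 0.22 ± 0.029 (adjusted p = 3.6e-06) for rejuvenated old and 0.23 ± 0.029 (adjusted p = 1.4e-07) for young against old MSCs. Ilk lies on chromosome 7. With chromosome medians subtracted, its difference in co-culture was 0.16 (adjusted p = 4.8e-05) and that of young from old MSCs turned to -0.37 (adjusted p = 1.4e-11). Parva, an actin-binding parvin on the same chromosome, was higher in young (0.93, or 0.33 with medians subtracted) and in rejuvenated old MSCs (0.11 ± 0.03 (adjusted p = 0.0055), or 0.05 with an adjusted p of 0.16 with medians subtracted). Parvb was higher in young MSCs (0.73) and differed by -0.12 ± 0.065 (adjusted p = 0.16) in co-culture, which became -0.18 with an adjusted p of 0.011 without rejuvenated old replicate 1.

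Focal adhesion kinase (Ptk2) and its partners were all higher in young than in old MSCs. Ptk2 was at 1801 to 2186 (median 1938) in young, 1543 to 1767 (median 1637) in old and 1327 to 1736 (median 1605) in rejuvenated old libraries. Young libraries lay above the rest, with a difference of 0.26 ± 0.054 (adjusted p = 1.1e-04), which was 0.06 (adjusted p = 0.31) with chromosome medians subtracted. Rejuvenated old MSCs differed from old MSCs by -0.06 ± 0.054 (adjusted p = 0.43). Pxn (paxillin, a substrate and scaffold of this kinase) was at 2911 to 3055 in young, 1624 to 1778 in old and 1290 to 1451 in rejuvenated old libraries. No groups overlapped, and paxillin was higher in young (0.80 ± 0.036 (adjusted p = 1.0e-15)) and lower in rejuvenated old MSCs (-0.33 ± 0.036 (adjusted p = 1.5e-07)). Bcar1 (p130Cas, another substrate) differed by 0.15 ± 0.03 (adjusted p = 8.2e-05) in young and by 0.06 ± 0.03 (adjusted p = 0.14) in rejuvenated old MSCs, and the former was 0.02 (adjusted p = 0.59) with chromosome medians subtracted.

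Zyx (zyxin, a protein of stressed actin filaments and mature adhesions) had the highest level per kb of the cytoplasmic members. It was at 68757 to 75997 (median 73699) in young, 15073 to 16983 (median 16165) in old and 18286 to 21748 (median 19394) in rejuvenated old libraries. Every young library was above the rest, every old library was below, and replicate 1 was the highest of the rejuvenated old libraries. Young MSCs were 4.55-fold higher than old MSCs (2.19 ± 0.039 (adjusted p = 4.2e-23)), and rejuvenated old MSCs were 1.22-fold higher (0.29 ± 0.039 (adjusted p = 3.7e-06)). Per kb the mean level of zyxin was 13558 ± 457 (SD, n = 6) in young MSCs, 2981 ± 122 in old MSCs and 3649 ± 224 in rejuvenated old MSCs, so in young MSCs it exceeded Itgb1, at 6815 ± 179.

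Vinculin, alpha-actinin 1 and Lpp went the other way from zyxin. Vcl (vinculin, which binds talin and actin under tension) was at 10896 to 12300 (median 11804) in young, 18854 to 20233 (median 19550) in old and 15339 to 18584 (median 17911) in rejuvenated old libraries. Actn1 (alpha-actinin 1, an actin crosslinker) was at 8267 to 8898 (median 8672), 18251 to 19356 (median 18886) and 15527 to 18069 (median 17446) in the same order. Lpp, a relative of zyxin, was at 3532 to 3767 (median 3671), 8771 to 9761 (median 9117) and 7769 to 8934 (median 8540). In all of these genes young libraries were lowest, and rejuvenated old libraries were below or at the lower end of the old libraries, with replicate 5 the lowest of its group. The differences in co-culture were -0.15 ± 0.042 (adjusted p = 0.0055) for Vcl, -0.13 ± 0.033 (adjusted p = 0.0034) for Actn1 and -0.12 ± 0.033 (adjusted p = 0.005) for Lpp. Those of young from old MSCs were -0.75, -1.13 and -1.33. Actn1 is on chromosome 12 and Lpp on chromosome 16, and with chromosome medians subtracted they were at -0.66 and -0.58, still called.

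Of the other 4 linkers, 2 were called in co-culture, where 21% of all genes were called higher and 20.6% lower. Tns1 (tensin 1, of fibrillar adhesions) was lower in rejuvenated old MSCs (-0.23 ± 0.041 (adjusted p = 1.0e-04)) and Tns3 (tensin 3) higher (0.20 ± 0.033 (adjusted p = 3.9e-05)), with no overlap of libraries in either. Actn4 and Vasp were not called, with differences of 0.04 ± 0.034 (adjusted p = 0.31) and 0.02 ± 0.035 (adjusted p = 0.75). Between young and old MSCs, Tns3 was at -0.12 and Vasp, which lengthens actin filaments, at -0.50. Vasp was at -1.10 with chromosome medians subtracted, and Tns3 lost its call at the same total (-0.042, adjusted p = 0.25) and under quantile normalization (-0.046, 0.25). Actn4 was at 0.35 and Tns1 at -0.45, and with chromosome medians subtracted these 2 turned to -0.25 and 0.24, both called in the new direction.

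**Figure D5:**
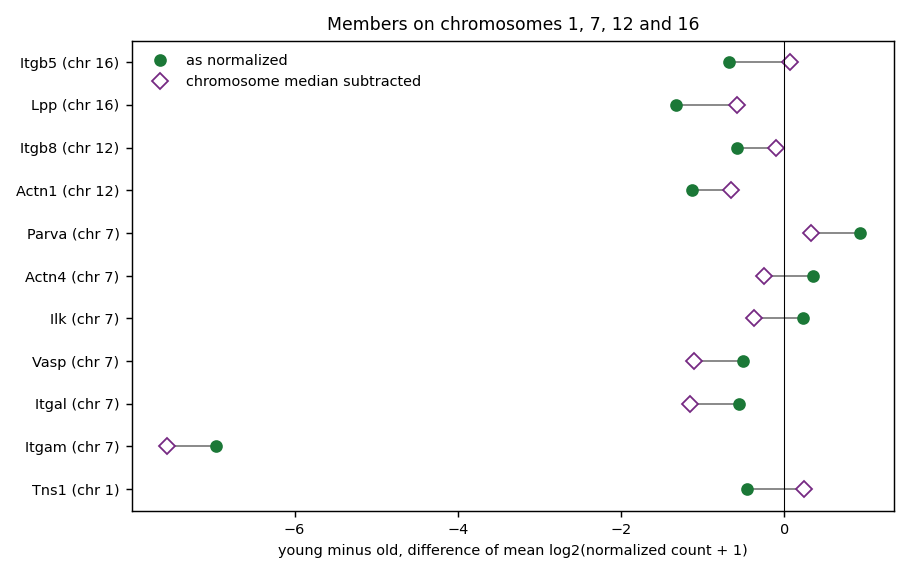
Differences of young from old MSCs for the 11 tested members on chromosomes 1, 7, 12 and 16, in log2 units, as normalized (filled circles) and with the median of all genes of the chromosome subtracted (open diamonds). Tns1, Ilk, Actn4 and Itgb5 cross 0, and Itgam moves from -6.96 to -7.57.

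The 5 members not called between young and rejuvenated old MSCs were Itgal, Itgb1, Itgb3, Itgb8 and Ilk. Their differences were -0.32 ± 0.30 (adjusted p = 0.32) for Itgal, -0.03 ± 0.034 (adjusted p = 0.44) for Itgb1, -0.08 ± 0.06 (adjusted p = 0.23) for Itgb3, 0.08 ± 0.24 (adjusted p = 0.75) for Itgb8 and 0.02 ± 0.029 (adjusted p = 0.62) for Ilk. These do not show equal levels, and with chromosome medians subtracted Itgal (-0.87), Itgb1 (-0.16), Itgb8 (0.55) and Ilk (-0.53) were called. At the same total Ilk was called as higher in young MSCs (0.11, adjusted p = 0.0013), and under quantile normalization so were Ilk (0.10) and Itgb1 (0.14).

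Without the members on these 4 chromosomes, 31 tested members were left, of which 9 rose and 9 fell from old to rejuvenated old MSCs (29.0% each, against 21% and 20.6% of all genes), and 15 were higher and 15 lower in young than in old MSCs (48.4% each, against 41.6% and 44.1%). The shares of all genes still include these 4 chromosomes, so they are not matched to the 31 members. With rejuvenated old replicates 1 and 5 both left out, a choice made after their values were seen, 11 of the 42 members rose and 15 fell from old to rejuvenated old MSCs. The shares of all genes in that fit are not given here.

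Other genes of adhesion structures and the ligands of integrins were read from 2 wider lists. Of 106 tested genes of the wider adhesome (adaptors, kinases, other linkers), 28 rose (26.4%, against 21% of all genes) and 35 fell (33.0%, against 20.6%) from old to rejuvenated old MSCs, with a median difference of -0.01. In young against old MSCs, 36 were higher (34.0%, against 41.6%) and 61 lower (57.5%, against 44.1%). The 3 largest rises in co-culture were in Sorbs3 (vinexin, a vinculin partner), Pdlim2 (a LIM protein on actin fibres) and Efs (a relative of p130Cas). Sorbs3 went from 1473 to 1647 in old to 2659 to 3344 in rejuvenated old libraries and was 5274 to 5876 in young ones, Pdlim2 from 2677 to 3187 to 4181 to 5543 with 2331 to 2542 in young, and Efs from 9.70 to 15.4 to 14.5 to 30.4 with 12.0 to 26.6 in young. Their differences were 0.88 ± 0.047 (adjusted p = 1.4e-12), 0.72 ± 0.055 (adjusted p = 7.0e-10) and 0.69 ± 0.22 (adjusted p = 0.013). The 3 largest falls were in Kank1 (a talin-binding protein at the rim of adhesions), Cav1 (caveolin 1) and Tes (testin, a zyxin partner). Kank1 went from 197 to 255 in old to 107 to 162 in rejuvenated old libraries with 1588 to 1777 in young ones, Cav1 from 10303 to 12074 to 6215 to 7596 with 5391 to 6126, and Tes from 1441 to 1766 to 857 to 1336 with 674 to 894. Their differences were -0.89 ± 0.086 (adjusted p = 2.7e-08), -0.69 ± 0.047 (adjusted p = 1.0e-10) and -0.55 ± 0.085 (adjusted p = 1.9e-05). Old and rejuvenated old libraries did not overlap in Sorbs3, Pdlim2, Kank1, Cav1 or Tes, which were picked for their differences between these groups. The share of all genes without overlap was not worked out.

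Integrin ligands were mostly lower in rejuvenated old MSCs. Of the 49 tested (60 listed), 5 were higher (10.2%, against 21% of all genes) and 29 lower (59.2%, against 20.6%) than in old MSCs, with a median difference of -0.28 against 0.01 over all genes. In young against old MSCs, 12 were higher (24.5%, against 41.6%) and 36 lower (73.5%, against 44.1%). The 3 largest falls were in the bone matrix proteins Ibsp and Dmp1, which carry RGD motifs, and in Edil3, a ligand of the Itgav receptors. Ibsp went from 35.4 to 63.5 in old to 5.79 to 19.8 in rejuvenated old libraries and was 0 to 1.03 in young ones, Dmp1 from 109 to 129 to 23.3 to 38.1 with 2.06 to 13.9 in young, and Edil3 from 747 to 946 to 339 to 476 with 384 to 498. Their differences were -2.22 ± 0.30 (adjusted p = 2.9e-06), -1.92 ± 0.25 (adjusted p = 1.7e-06) and -1.04 ± 0.077 (adjusted p = 4.3e-10). The 3 largest rises were in Fbln5 (an elastic fibre protein with an RGD motif), Lrrc32 (which displays latent TGF-beta) and Lama5 (the laminin chain that Itga3 binds). Fbln5 went from 3270 to 3522 to 5439 to 6548 with 3091 to 3494 in young, Lrrc32 from 5468 to 6026 to 9614 to 10478 with 4630 to 5508, and Lama5 from 463 to 617 to 739 to 942 with 4322 to 5029. Their differences were 0.83 ± 0.04 (adjusted p = 2.3e-13), 0.80 ± 0.037 (adjusted p = 2.0e-13) and 0.68 ± 0.067 (adjusted p = 3.1e-08). Old and rejuvenated old libraries did not overlap in any of these 6 ligands. As the ligands were picked for their differences between these groups, that follows largely from the choice.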

How the data were processed

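RNA of 18 MSC cultures was sequenced from stranded mRNA libraries. Per the labels and the methods, the authors used HISAT2 for alignment to mm10, StringTie and featureCounts for read counts, and DESeq2 for normalization, on Galaxy. Versions, annotation and the strand setting of the counting are not given in the sources used here, so reads of overlapping genes may be shared. The deposited values are a signal, the reads per gene divided by 1 size factor per library, and 100% of values came out as whole multiples of 1 read within 0.01 reads. Genes were placed on GRCm38.p6, and exon lengths came from GENCODE for the same build.

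The main test was limma 3.58.1 in R 4.3.3 on log2(value + 1), with 1 mean per group, a mean-dependent variance trend and a Benjamini-Hochberg adjusted p over 14353 genes. edgeR 4.0.16 and DESeq2 1.42.0 on the recovered reads were alternatives. The fits were tested on simulated counts. Figures used Python with matplotlib. The other alternatives were pseudocounts of 0.5 and 10, no filter or a mean of at least 50, 3 other scalings, subtraction of chromosome medians, fits of 2 groups, a fit without the variance trend, a block for the replicate number, other thresholds and leaving out each library.

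The members and lists were chosen with earlier results of these data known. Full values are given for members called with a difference of at least 0.5 in co-culture or at least 1 between young and old MSCs, for the most abundant alpha chain, beta chain and cytoplasmic member per kb, and for Itgb1, Tln1, Ptk2, Vcl and Ilk. From each wider list the 3 largest rises and falls in co-culture are named. Pxn's ranges, Itgb3, Itgb5 and the markers named were chosen after their values were seen. Counting intervals are exact and cover counting error only.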

Additional observations from a re-analysis of the deposited data

Results flagged for a closer look

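Each group of 6 libraries was screened for a highest or lowest library whose gap to the nearest other was, as a share of the range, over Dixon's critical value at 95%, in the 28 members given in full. Groups of 6 are flagged by chance about 1 time in 20, and 5 of 83 groups were flagged. In rejuvenated old MSCs, replicate 1 held 626 normalized counts of Itga3, against 256 to 317 in the other 5. Replicate 5 of the same group held the lowest Lims1 (4791, the next being 5267), Ptk2 (1327, the next being 1586) and Actn1 (15527, the next being 17419). In old MSCs, replicate 2 held the lowest Itga9, 235, the next being 282. Lims1, Ptk2, Actn1 and Itga9 were on the same side of the threshold in all 3 comparisons when that library was left out, while Itga3 became called as lower in rejuvenated old MSCs. The cause was not tested.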

How the results depend on the processing

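The counts of called members changed by over 1.5 times only where a difference of at least 0.5 log2 units was also asked for, which left 1 higher and 3 lower members in rejuvenated old against old MSCs and 13 lower in young against rejuvenated old MSCs. Leaving out 1 library gave 10 to 12 higher and 12 to 17 lower members in co-culture, and 18 higher and 20 to 22 lower in young against old MSCs. With chromosome medians subtracted, differences turned in young against old MSCs for Itgb5 (0.069), Tln1 (0.050), Ilk (-0.37), Actn4 (-0.25) and Tns1 (0.24), and in young against rejuvenated old MSCs for Itga11 (-0.026), Itgb5 (0.36), Bcar1 (-0.036), Actn4 (-0.24) and Tns1 (0.45). Young against old MSCs also turned for Itgb1 under quantile normalization (0.065) and for Tln1 at the same total (0.0085). Of 26 members called in co-culture, 21 kept their call and direction in every alternative fit that tested them, as did 30 of 40 in young against old MSCs and 30 of 37 in young against rejuvenated old MSCs. Itga4, Itgae, Itgal, Itgb7 and Itgb8 were not tested at a mean of at least 50. Same-numbered libraries did not deviate together (correlations of -0.15 to 0.07), so the numbers were not taken as pairs, and with the replicate block 12 members were higher and 14 lower in co-culture. With the block 23 rather than 22 were lower in young than in old MSCs, the added one being Itgal (adjusted p = 0.047). Counts of 4 reads or fewer per library, as for Itga9 and Itgam in young MSCs, limit the ratios given to wide intervals.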
